A study of Rattus norvegicus with 2 samples.

Results

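The genes described here are 52 rat genes of glutathione, peroxide and detoxification metabolism, out of 32883 genes in the count tables. They were taken by symbol, as all numbered members of the *Gsta*, *Gstm*, *Gstp*, *Gstt*, *Gsto*, *Gstk*, *Mgst*, *Gpx* and *Prdx* families and 13 single genes (*Gclc*, *Gclm*, *Gss*, *Gsr*, *Txn1*, *Txnrd1*, *Nqo1*, *Hmox1*, *Cat*, *Sod1*, *Sod2*, *Sod3* and *Ces1d*). This choice was made with earlier results of these data known. Of the 52 genes, 41 had at least 50 UMIs over both libraries. A UMI (unique molecular identifier) marks 1 captured mRNA molecule. The other 11 were near or at 0: *Gsta3* had 12 UMIs over both libraries, *Gpx5* had 5, *Gstt4* had 3, *Gpx6* had 2, *Gstm5* had 1, and *Gsta2*, *Gsta5*, *Gstm3*, *Gstm3l*, *Gstm6l* and *Gsto2* were listed at 0, which does not show that they were absent.

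Hypothalamic tissue holding the AVPV and ARC was collected from female Sprague Dawley rats on PND 29 and dissociated with collagenase, and 3 rats were pooled into each of 2 droplet libraries. Estradiol benzoate (EB), 300 µg in sesame oil, was given to SC300 rats on PND 0.5 from an implanted silicone capsule. By the study's methods the capsule of Control rats held only the oil, whereas the sample label calls these rats intact. Each group was 1 library of pooled animals, so there is no replicate error, no test between the groups can be made, and the treatment cannot be told apart from any other difference between the 2 libraries. All intervals below are exact 95% intervals and cover counting error only.

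Of the barcodes with at least 200 detected genes, 4296 were Control and 4379 were SC300, with a median of 7986 and 8182 UMIs. Both libraries listed 7 of these barcodes. Cell types were assigned to single barcodes from markers that held none of the 52 genes, and every name below stands for that gate, written with "-like". In each library 86 of the 90 markers found were highest in their own type, which the gate itself favours. Tanycytes are the elongated glia that line the floor of the third ventricle. Tanycyte-like cells numbered 244 in Control and 149 in SC300. Their most abundant tanycyte markers were *Crym* (2810 and 3780 CPM), *Lhx2* (297 and 265 CPM) and *Frzb* (322 and 216 CPM). *Rax* was at 6.60 and 7.92 CPM, *Gpr50* was under 1 CPM, and *Col23a1* was at 0 in SC300. Ependymal markers, summed at 2189 and 2211 CPM, could also bring a barcode into this gate, which then required 2 tanycyte markers. CPM are UMIs of a gene per 1000000 UMIs of the cell type. Each UMI stands for the 3′ end of 1 transcript, so CPM were not divided by length.

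Glutathione S-transferases (GST) attach the tripeptide glutathione to reactive or foreign compounds so that they can be exported. Glutathione peroxidases and peroxiredoxins reduce hydrogen peroxide and lipid peroxides with electrons from glutathione or thioredoxin, superoxide dismutases turn superoxide into hydrogen peroxide, and catalase splits it. Many of these genes are known targets of the transcription factor NRF2, and in the brain astrocytes and other glia are regarded as the main store of glutathione.

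The 52 genes together were most abundant in tanycyte-like cells. Their summed level there was 14661 CPM in Control and 10491 CPM in SC300. Ependymal cell-like cells followed with 9170 and 8681 CPM, and the lowest sums were in microglia-like cells, with 3389 and 3265 CPM. Among 10 cell types with at least 50 cells in each library, tanycyte-like cells held the highest level of 9 of the 41 genes in both libraries (*Ces1d*, *Gpx8*, *Gsta1*, *Gsta4*, *Gstm2*, *Gstt1*, *Nqo1*, *Prdx2* and *Prdx4*), and neuron-like cells also held that of 9. Orders of level below are among these 10 types. Macrophage-like and stromal (fibroblast)-like cells had under 50 cells in a library and were left out of the orders. Ependymal cell-like cells held 6, mature oligodendrocyte-like cells 4, astrocyte-like, microglia-like and mural cell-like cells 2 each, and oligodendrocyte precursor-like and endothelial cell-like cells 1 each.

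**Figure D1:**
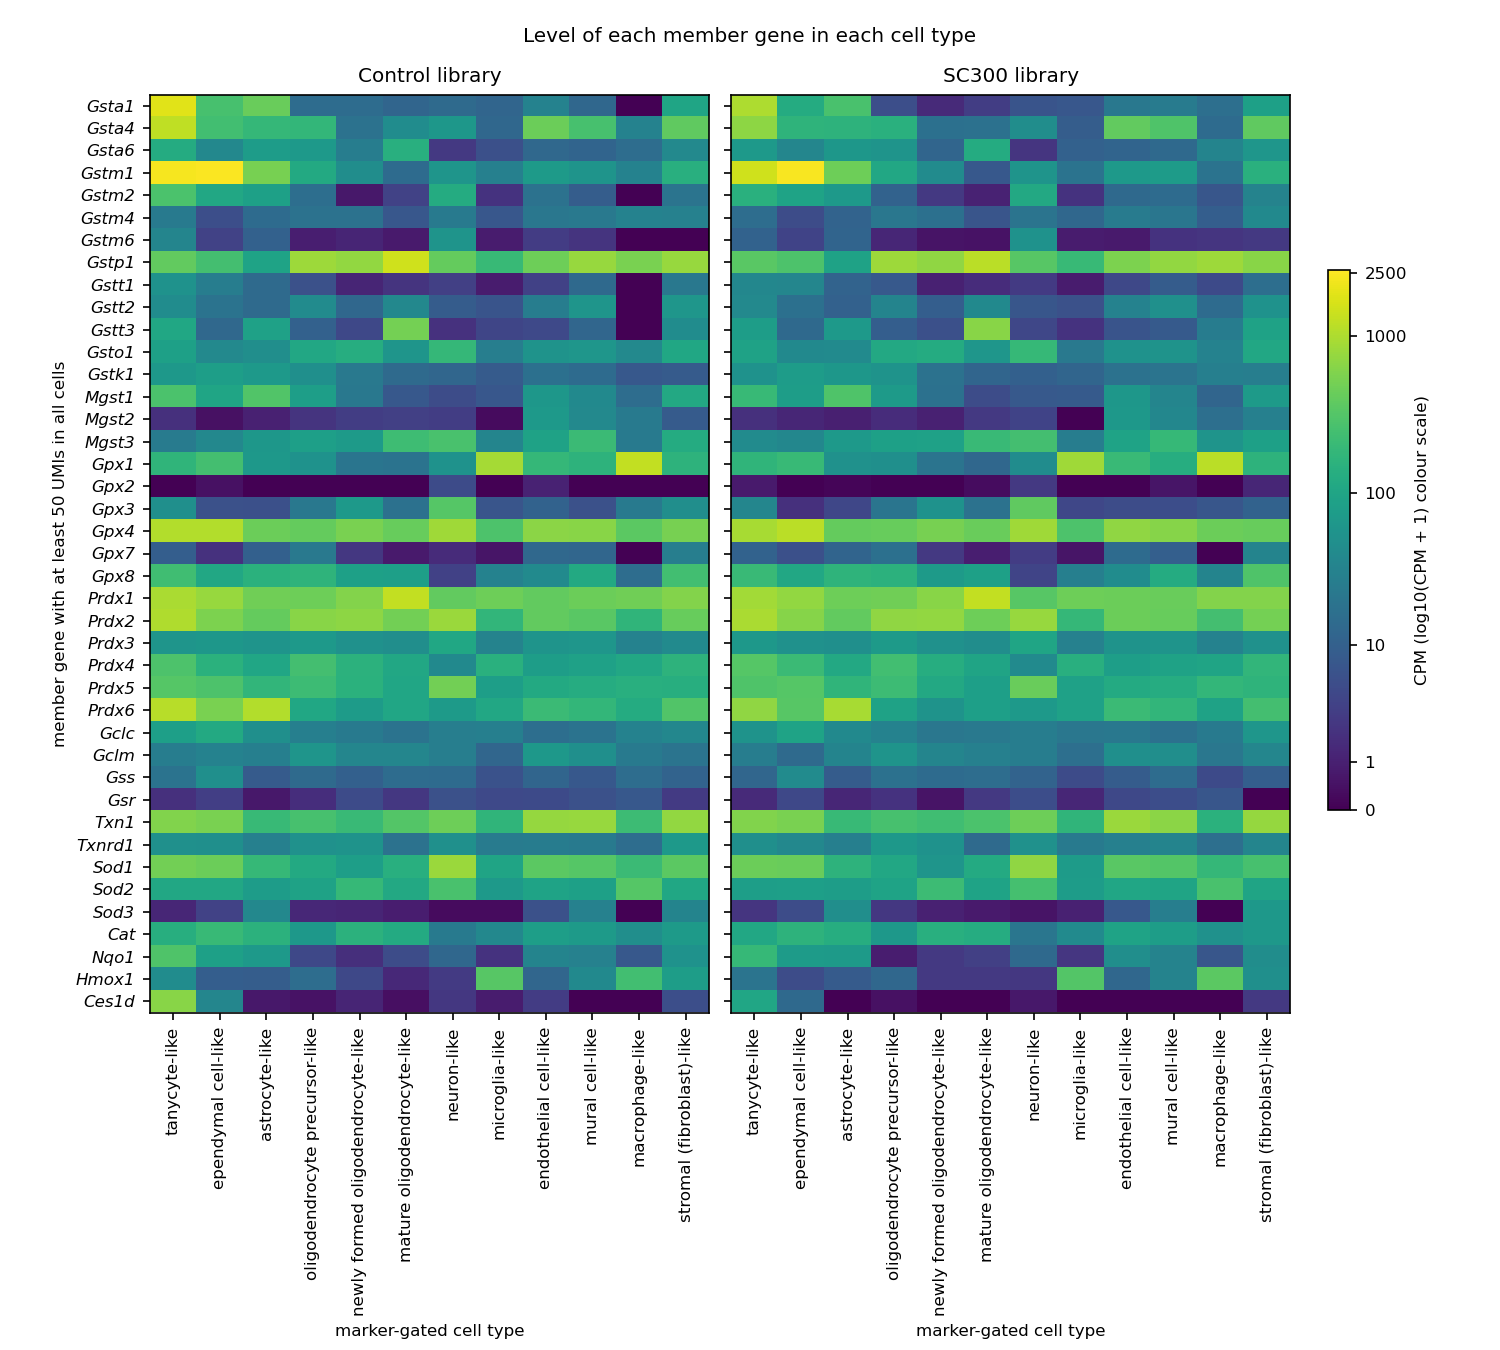
Level of the 41 genes with at least 50 UMIs (rows) in 12 marker-gated cell types (columns) in the Control library (left) and the SC300 library (right), as CPM on a log10(CPM + 1) colour scale. *Gsta1*, *Gstm1* and *Ces1d* were bright in tanycyte-like cells (1821, 2333 and 633 CPM in Control), *Gstp1* in mature oligodendrocyte-like cells (1452 CPM) and *Gpx1* in microglia-like cells (901 CPM).

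Of the alpha-class GST genes, *Gsta1* and *Gsta4* were highest in tanycyte-like cells. *Gsta1* was at 1821 CPM in Control and 993 CPM in SC300 there, and the next type, astrocyte-like cells, was at 424 and 274 CPM. *Gsta4*, whose product clears the lipid peroxidation product 4-hydroxynonenal, was at 1230 and 692 CPM in tanycyte-like cells and next at 443 and 396 CPM in endothelial cell-like cells. Microglia-like cells had 11.9 and 7.55 CPM of *Gsta1* and under 15 CPM of *Gsta4* in both libraries, and *Gsta1* was lower still in newly formed oligodendrocyte-like cells of SC300, at 1.58 CPM. *Gsta6* had another order, with 143 and 125 CPM in mature oligodendrocyte-like cells and 127 and 67.7 CPM in tanycyte-like cells. The sequences of these paralogs are alike, and reads that fit several genes equally well are left out by the counting program, so the split between them is uncertain.

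The mu-class gene *Gstm1* marked the ventricular wall. It reached 2474 and 2434 CPM in ependymal cell-like cells and 2333 and 1462 CPM in tanycyte-like cells, then 525 and 460 CPM in astrocyte-like cells, and ended at 14.6 and 7.64 CPM in mature oligodendrocyte-like cells. *Gstm2* was at 276 and 145 CPM in tanycyte-like cells and, unlike *Gstm1*, next highest in neuron-like cells, at 124 and 112 CPM. Ependymal cell-like cells were close to that, at 112 and 96.1 CPM. *Gstm6* was highest in neuron-like cells, at 57.0 and 54.9 CPM. *Gstm4* was at 23.8 CPM in neuron-like cells of Control and 25.5 CPM in endothelial cell-like cells of SC300, and at 31.1 and 40.2 CPM in the few stromal (fibroblast)-like cells (23 and 45 cells).

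The other GST classes were spread over other cells. *Gstp1*, the pi-class enzyme, was at 1452 and 1154 CPM in mature oligodendrocyte-like cells and at 826 and 822 CPM in oligodendrocyte precursor-like cells, and lowest in astrocyte-like cells, at 93.7 and 92.4 CPM. The theta-class gene *Gstt3* was at 502 and 632 CPM in mature oligodendrocyte-like cells, and next of the 10 types at 106 and 78.8 CPM in tanycyte-like cells. *Gstt2* was highest of the 10 types in mural cell-like cells at 59.7 and 50.2 CPM (62.2 and 53.7 CPM in stromal (fibroblast)-like cells), and *Gstt1* in tanycyte-like cells at 53.5 and 37.6 CPM. The omega-class gene *Gsto1* was at 188 and 192 CPM in neuron-like cells, and the peroxisomal and mitochondrial *Gstk1* at 80.8 and 77.1 CPM in ependymal cell-like cells.

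The microsomal GST genes, which encode membrane enzymes, were each highest in a different cell type, and *Mgst1* and *Mgst3* were abundant in others too. *Mgst1* was at 302 and 294 CPM in astrocyte-like cells and 283 and 197 CPM in tanycyte-like cells. *Mgst3* was at 273 and 247 CPM in neuron-like cells, and 25.4 and 44.0 CPM in tanycyte-like cells. It was also at 223 and 205 CPM in mature oligodendrocyte-like cells and 212 and 193 CPM in mural cell-like cells. *Mgst2* was at 66.6 and 64.9 CPM in endothelial cell-like cells and at most 0.276 CPM in microglia-like cells.

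Among the glutathione peroxidases, *Gpx4*, which reduces lipid peroxides in membranes, was the broadest. It ranged from 289 and 288 CPM in microglia-like cells to 1065 and 1152 CPM in ependymal cell-like cells. *Gpx1*, the cytosolic enzyme, was at 901 and 856 CPM in microglia-like cells and, in the few macrophage-like cells (18 and 47 cells), at 1245 and 1167 CPM, whereas mature oligodendrocyte-like cells had under 20 CPM in both libraries. *Gpx3*, which encodes the secreted form, was a gene of neuron-like cells, at 324 and 382 CPM against 69.2 and 53.3 CPM in newly formed oligodendrocyte-like cells. *Gpx8* was at 232 and 204 CPM in tanycyte-like cells, at 240 and 302 CPM in stromal (fibroblast)-like cells and at 3.56 and 4.02 CPM in neuron-like cells. *Gpx7* was at 23.4 and 17.1 CPM in oligodendrocyte precursor-like cells and 28.3 and 33.5 CPM in stromal (fibroblast)-like cells, and *Gpx2* at 5.08 and 2.68 CPM in neuron-like cells.

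Each peroxiredoxin gene was found in every cell type compared. *Prdx1* ranged from 388 and 339 CPM in neuron-like cells to 1270 and 1246 CPM in mature oligodendrocyte-like cells. *Prdx2* was at 1004 and 949 CPM in tanycyte-like cells and 804 and 781 CPM in neuron-like cells. Red blood cells are rich in *Prdx2*. Haemoglobin UMIs in neuron-like cells were at 1280 CPM in Control and 91.1 CPM in SC300, and their *Prdx2* log2 ratio was −0.04. In mural cell-like cells haemoglobin was at 32798 and 64564 CPM, and *Prdx2* at 344 and 422 CPM (0.30, 0.13 to 0.47). The part of red blood cell RNA in *Prdx2* was not tested. *Prdx6*, which also acts on phospholipid peroxides, was at 1116 and 700 CPM in tanycyte-like cells and 1051 and 917 CPM in astrocyte-like cells, with neuron-like cells at 72.4 and 68.0 CPM. *Prdx4* of the endoplasmic reticulum was at 293 and 326 CPM in tanycyte-like cells. *Prdx5* (483 and 430 CPM) and the mitochondrial *Prdx3* (107 and 102 CPM) were highest in neuron-like cells.

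Genes of glutathione synthesis were low. *Gclc*, the catalytic subunit of the first enzyme, was at 120 and 94.1 CPM in ependymal cell-like cells and 84.2 and 56.3 CPM in tanycyte-like cells, and *Gss*, the second enzyme, was at 48.5 and 43.1 CPM in ependymal cell-like cells. *Gclm*, the regulatory subunit, was at 64.4 and 49.5 CPM in endothelial cell-like cells and 59.6 and 57.4 CPM in oligodendrocyte precursor-like cells. *Gsr*, glutathione reductase, did not exceed 6.12 CPM in Control or 5.46 CPM in SC300 in the 10 types, both in mural cell-like cells, and was at 7.83 and 7.20 CPM in macrophage-like cells. Thioredoxin, *Txn1*, was at 767 and 665 CPM in mural cell-like cells and 743 and 796 CPM in endothelial cell-like cells. Its reductase *Txnrd1* was at 56.5 and 53.8 CPM in newly formed oligodendrocyte-like cells and 53.2 and 65.7 CPM in oligodendrocyte precursor-like cells.

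*Sod1*, the cytosolic dismutase, was at 786 and 700 CPM in neuron-like cells and 487 and 437 CPM in tanycyte-like cells. The mitochondrial *Sod2* was also highest of the 10 types in neuron-like cells, at 272 and 256 CPM, with 329 and 271 CPM in macrophage-like cells. The secreted *Sod3* was highest of the 10 types in astrocyte-like cells, at 38.7 and 47.0 CPM, with 33.9 and 64.4 CPM in stromal (fibroblast)-like cells. Catalase, *Cat*, was at 201 and 159 CPM in ependymal cell-like cells and 24.2 and 20.9 CPM in neuron-like cells. *Hmox1*, the haem oxygenase, was a gene of microglia-like cells (339 and 316 CPM) and macrophage-like cells (243 and 358 CPM). *Nqo1*, a quinone reductase, was at 298 and 195 CPM in tanycyte-like cells, and the next type, ependymal cell-like cells, was at 86.5 and 73.9 CPM.

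*Ces1d*, a carboxylesterase that hydrolyses esters and drugs, was nearly limited to the ventricular wall. Tanycyte-like cells had 633 CPM in Control and 103 CPM in SC300, ependymal cell-like cells 35.9 and 13.7 CPM, and the other 8 types compared at most 3.01 CPM in Control and 0.671 CPM in SC300. In Control, 219 of 244 tanycyte-like cells held a *Ces1d* UMI (89.8%, 85.2 to 93.3), against 4 of 1173 astrocyte-like cells (0.341%, 0.0930 to 0.871) and 3 of 518 microglia-like cells (0.579%, 0.120 to 1.68). The median depth was 10759 UMIs in tanycyte-like cells, 6422 in astrocyte-like cells and 6839 in microglia-like cells. Of ependymal cell-like cells, 21 of 67 held a *Ces1d* UMI in Control (31.3%, 20.6 to 43.8), at a median depth of 27655 UMIs.

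The comparison of SC300 with Control asks whether neonatal EB went with another level of these genes at PND 29. By the study's measurements serum estradiol was still higher in SC300 than in Control rats near that age. In the hypothalamus the study found estradiol back at the Control level within about a week of implanting. It did not measure hypothalamic estradiol near PND 29. Early exposure and continuing exposure through serum therefore cannot be told apart here. In tanycyte-like cells 37 of the 52 genes had at least 50 UMIs over both libraries, and 11 of these 37 (29.7%) were lower in SC300 by over 1.5-fold, beside 7.34% of all 7972 genes with as many UMIs. Only *Mgst3* (2.70% of the 37) was higher by as much, beside 5.51% of all genes. The log2 ratio of SC300 over Control was below 0 for 31 of the 37 genes and for 54.5% of all genes, and its median was −0.33 for the 37 genes and −0.03 for all genes. Group and library are the same thing here, so none of these shares carries a test. The genes, *Ces1d* among them, were also chosen with earlier results of these data known, so the shares are a description only.

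**Figure D2:**
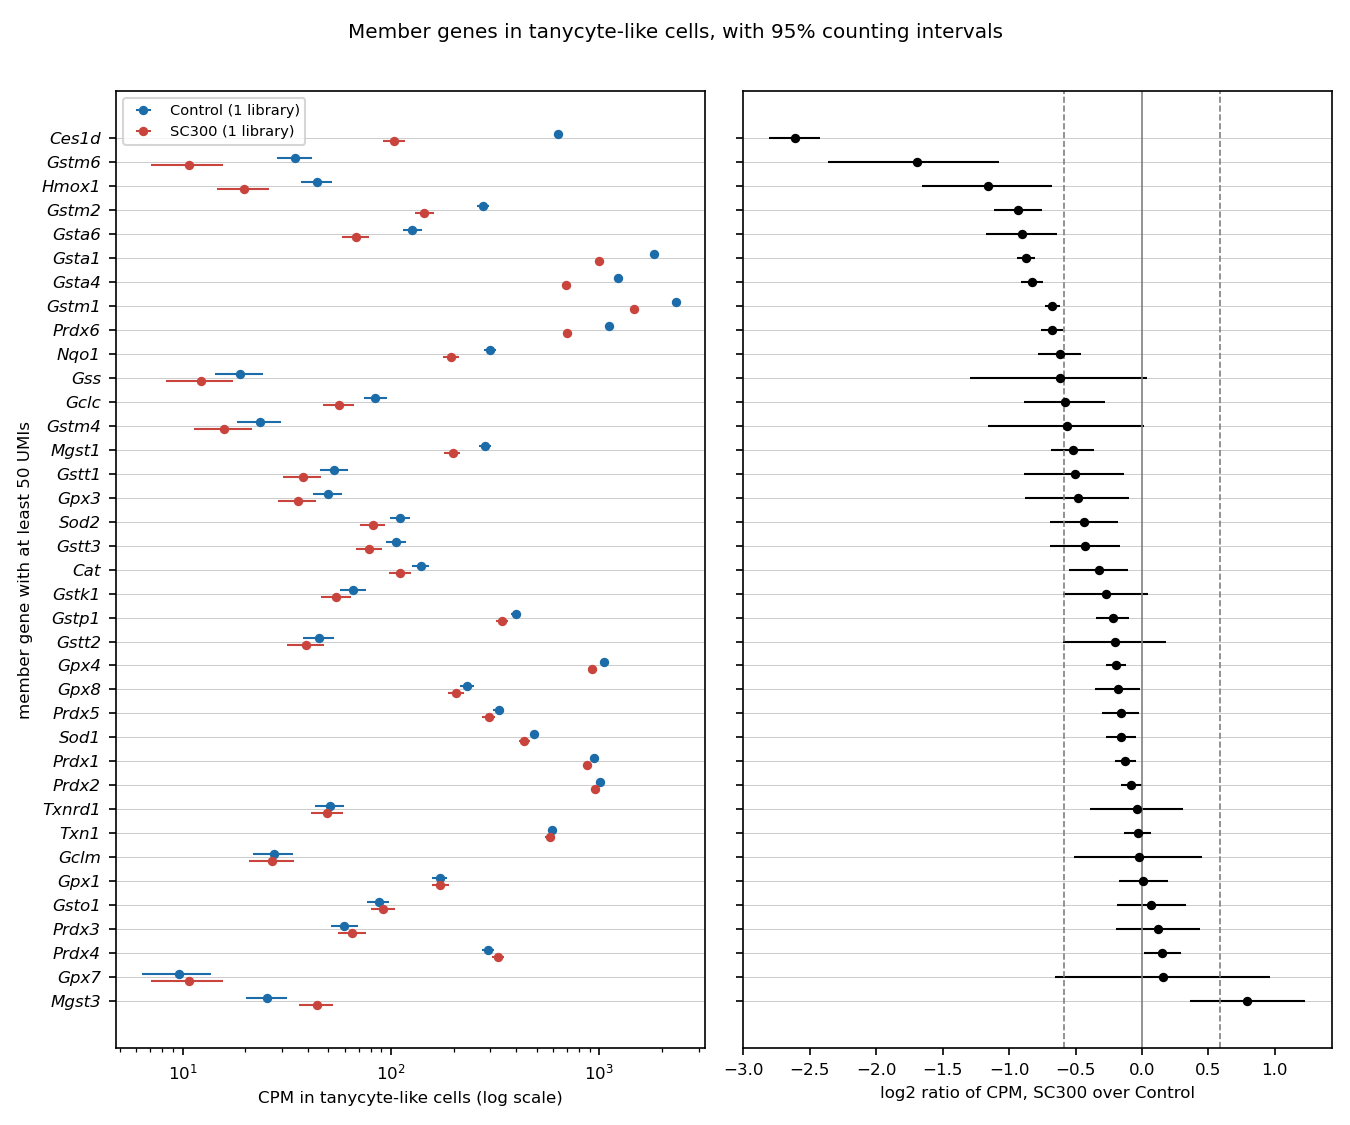
The 37 genes with at least 50 UMIs in tanycyte-like cells, sorted by ratio. Left, CPM in the Control and SC300 library on a log axis. Right, log2 ratio of SC300 over Control, with dashed lines at 1.5-fold; bars are 95% counting intervals. Values run from −2.61 for *Ces1d* to 0.79 for *Mgst3*, and *Txn1*, *Gclm* and *Gpx1* lie between −0.03 and 0.01.

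Of the 37 genes, *Ces1d* had the largest difference. Its 1916 UMIs in Control (633 CPM, 605 to 662) stood against 261 UMIs in SC300 (103 CPM, 91.2 to 117), a level 6.12-fold lower (log2 ratio −2.61, −2.81 to −2.43). The share of tanycyte-like cells with a *Ces1d* UMI was 89.8% in Control and 60.4% (52.1 to 68.3) in SC300, at median depths of 10759 and 11756 UMIs. With every cell thinned to 2000 UMIs, which left out 8 Control and 3 SC300 cells, the shares were 66.5% (60.1 to 72.5) and 23.3% (16.7 to 31.0). The lower level was thus spread over cells: the median cell had 5.56 *Ces1d* UMIs per 10000 UMIs in Control and 0.712 in SC300, and no single cell held more than 4.98% of the UMIs.

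Of the alpha-class GST genes, 3 of 3 with enough UMIs were lower by over 1.5-fold, beside 7.34% of all genes. Their sequences are alike and the split of reads between them is uncertain, so these 3 are not separate results. *Gsta1* had 5514 UMIs in Control and 2507 in SC300 (log2 ratio −0.87, −0.94 to −0.81), *Gsta4* had 3724 and 1747 (−0.83, −0.91 to −0.75), and *Gsta6* had 384 and 171 (−0.90, −1.17 to −0.64). The share of cells with a *Gsta1* UMI was 92.6% and 87.9%, and the median cell had 14.3 and 5.36 *Gsta1* UMIs per 10000 UMIs. In SC300 1 cell held 14.2% of the *Gsta1* UMIs, and without the top cell of each library the log2 ratio was −1.05.

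**Figure D3:**
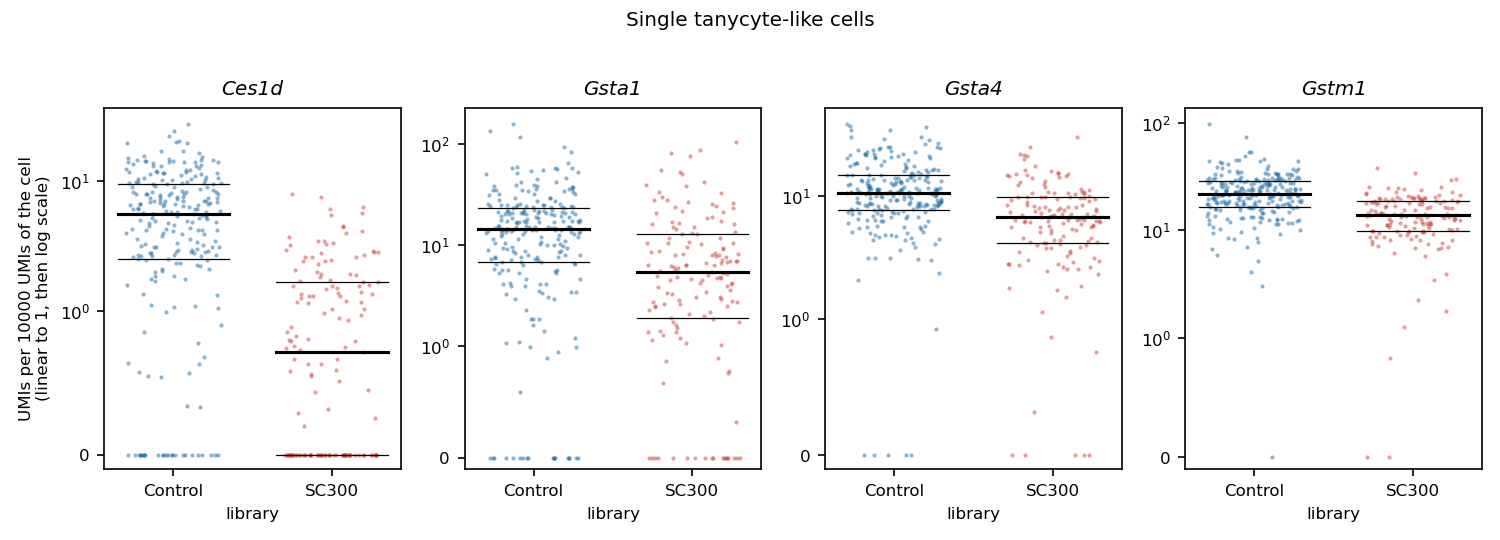
UMIs of *Ces1d*, *Gsta1*, *Gsta4* and *Gstm1* per 10000 UMIs in single tanycyte-like cells of the Control (244 cells) and SC300 (149 cells) library. The vertical axis is linear up to 1 and logarithmic above; thick lines are medians and thin lines quartiles. The upper quartile of *Ces1d* in SC300 (1.66) lies below the lower quartile in Control (2.52), while the quartile ranges of the other 3 genes overlap.

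The mu-class genes were lower as well. *Gstm1* had 7066 and 3690 UMIs (−0.67, −0.73 to −0.62), *Gstm2* had 837 and 365 (−0.93, −1.12 to −0.76), and *Gstm6* had 105 and 27 (−1.70, −2.36 to −1.07). *Gstm4* had 71 and 40 UMIs, with a log2 ratio of −0.56 and an interval from −1.16 to 0.01. The pi, theta, omega and kappa classes did not pass 1.5-fold: their log2 ratios lay between −0.51 for *Gstt1* and 0.07 for *Gsto1*. Of the microsomal genes, *Mgst1* was at −0.52 (−0.68 to −0.36), and *Mgst3* had 77 and 111 UMIs, or 0.79 (0.36 to 1.23). With every cell thinned to 2000 UMIs, the *Mgst3* value was 0.11, with an *Mgst3* UMI left in 12 Control and 8 SC300 cells.

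Only 1 peroxidase gene in tanycyte-like cells was past 1.5-fold. *Prdx6* had 3381 UMIs in Control and 1766 in SC300 (−0.67, −0.76 to −0.59). The other peroxiredoxins lay between −0.16 for *Prdx5* and 0.15 for *Prdx4*, and the glutathione peroxidases between −0.48 for *Gpx3* and 0.16 for *Gpx7*. *Gpx4*, at 1051 and 918 CPM, had a log2 ratio of −0.20 (−0.27 to −0.12).

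Among the single genes, *Hmox1* had 134 and 50 UMIs in tanycyte-like cells (−1.16, −1.66 to −0.68) and *Nqo1* had 904 and 491 (−0.62, −0.78 to −0.46). *Gss* had 57 and 31 UMIs, with an interval that included 0 (−0.62, −1.30 to 0.04), and *Gclc*, with 255 and 142, stayed just under 1.5-fold (−0.58, −0.89 to −0.28). Its partner subunit *Gclm* was at −0.02 (−0.51 to 0.46). *Sod2* was at −0.43, *Cat* at −0.33, *Sod1* at −0.16, *Txnrd1* at −0.04 and *Txn1* at −0.03. *Gsr*, *Sod3*, *Mgst2* and *Gpx2* had too few UMIs there to be compared.

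Marker levels in tanycyte-like cells also differed between the libraries. Cells with a *Frzb* UMI made up 43.4% of the tanycyte-like cells in Control and 32.2% in SC300. *Crym* was higher in SC300 both in cells with a *Frzb* UMI (3639 and 5501 CPM) and in cells without (2116 and 2639 CPM). The summed astrocyte markers were at 2570 CPM in Control and 1772 CPM in SC300, though *Agt* was at 402 and 408 CPM. The summed ependymal markers were at 2189 and 2211 CPM and the neuron markers at 210 and 226 CPM. *Ces1d* was lower in SC300 in both kinds of cell, at −2.09 (−2.42 to −1.78) with a *Frzb* UMI and −2.92 (−3.16 to −2.68) without. *Gstm2*, *Gstm6*, *Gsta4* and *Hmox1* were also past 1.5-fold in both. *Gsta1* was at −0.38 (−0.47 to −0.30) in cells with a *Frzb* UMI and −1.57 (−1.69 to −1.44) in cells without. *Prdx6* and *Nqo1* were also past 1.5-fold only in cells without, at −0.90 and −0.93 against −0.36 and −0.22. So were *Gstm1*, at −0.76 against −0.55, and *Gsta6*, at −1.19 against −0.58, just under the limit. In cells with a *Frzb* UMI 5 of 33 of the genes were lower by over 1.5-fold (15.2%, beside 7.99% of all genes compared), and in cells without 14 of 35 (40.0%, beside 9.57%). A *Frzb* UMI depends on depth. Marker levels can differ within the same cells or through another mix of cells, and neither was tested.

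**Figure D4:**
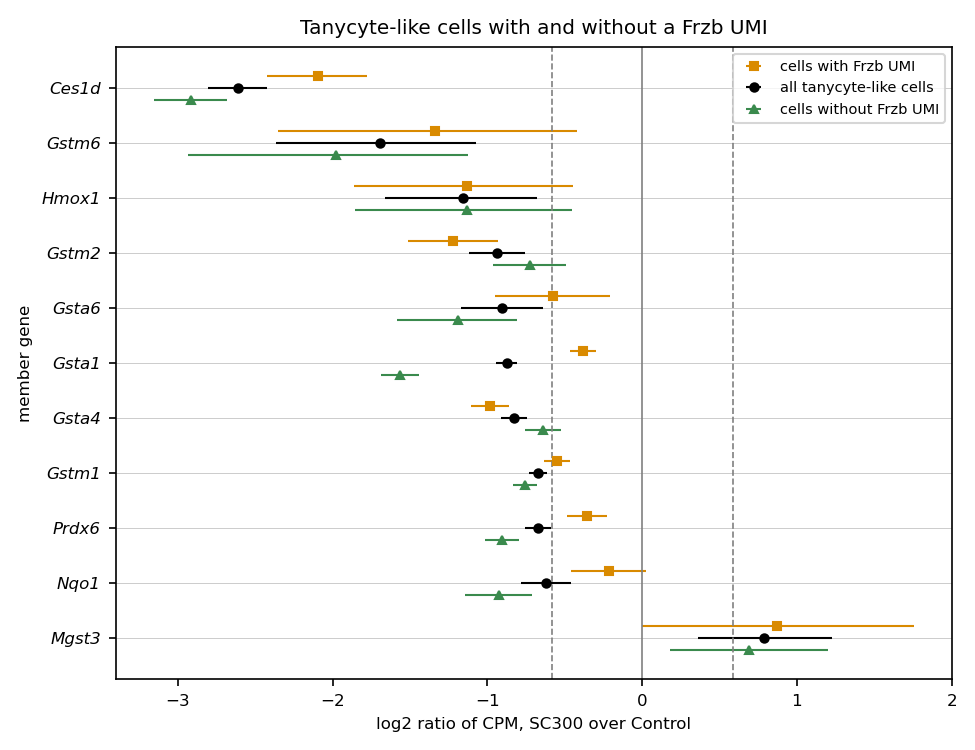
Log2 ratio of SC300 over Control for 11 genes in all tanycyte-like cells (circles), in those with a *Frzb* UMI (squares) and in those without (triangles), with 95% counting intervals and dashed lines at 1.5-fold. *Ces1d* lies left of −2 in each, whereas *Gsta1* runs from −0.38 to −1.57.

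The promoters of these genes were read from RefSeq (GRCr8), where 42 of the 52 symbols matched. The symbols alone were matched, and the files name no coordinates. The bases shown are the 250 before the annotated start, on the gene's strand. They are from 3 genes lower by over 1.5-fold in tanycyte-like cells of SC300, and from *Gstp1*, which stayed within 1.5-fold there (398 and 342 CPM). Capitals mark the letters of the antioxidant response element core bound by NRF2 (TGACNNNGC) and of the TATA box (TATAAA). Each was searched on both strands and at any position. *Ces1d* lies at chr19:30046244-30046493 on the plus strand, *Gstm1* at chr2:198343384-198343633, *Nqo1* at chr19:52220268-52220517 and *Gstp1* at chr1:210769706-210769955, all 3 on the minus strand.
Ces1d: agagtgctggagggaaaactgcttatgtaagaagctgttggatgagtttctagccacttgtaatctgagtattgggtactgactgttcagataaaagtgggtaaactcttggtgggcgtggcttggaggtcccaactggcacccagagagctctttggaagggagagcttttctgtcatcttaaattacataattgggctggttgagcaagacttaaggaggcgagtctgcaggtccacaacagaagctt
Gstm1: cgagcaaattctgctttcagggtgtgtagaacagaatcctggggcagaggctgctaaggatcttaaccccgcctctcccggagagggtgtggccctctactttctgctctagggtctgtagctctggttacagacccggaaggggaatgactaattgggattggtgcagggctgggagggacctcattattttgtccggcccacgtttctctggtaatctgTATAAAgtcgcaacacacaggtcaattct
Nqo1: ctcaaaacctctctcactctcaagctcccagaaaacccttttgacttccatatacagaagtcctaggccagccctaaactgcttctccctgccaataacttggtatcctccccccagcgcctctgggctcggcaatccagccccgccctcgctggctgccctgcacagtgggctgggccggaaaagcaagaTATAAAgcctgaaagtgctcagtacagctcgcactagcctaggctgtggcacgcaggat
Gstp1: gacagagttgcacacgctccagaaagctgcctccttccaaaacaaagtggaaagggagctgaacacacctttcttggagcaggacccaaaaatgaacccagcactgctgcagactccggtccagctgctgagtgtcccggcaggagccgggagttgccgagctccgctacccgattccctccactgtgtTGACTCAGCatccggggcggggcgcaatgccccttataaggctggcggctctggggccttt

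The response element core was in 7 of the 42 matched promoters (16.7%; *Gclm*, *Gpx2*, *Gsta3*, *Gstm5*, *Gstp1*, *Prdx1* and *Sod2*) and in 10.1% of all 33469 promoters of that length. It was in 0 of the 9 matched promoters of genes lower by over 1.5-fold in tanycyte-like cells and in 7 of the 33 others. So small a number of promoters can hold none at the share found in all promoters. In *Gstp1* it stood at bases −61 to −53 as TGACTCAGC, where its first 7 letters are also an AP-1 site (TGANTCA), and the core in *Prdx1* overlaps one too. The AP-1 letters were in 4 of the 42 promoters (9.52%) and 6.34% of all. The TATAAA letters, at any position, were in 11 (26.2%) and 12.9% of all, 4 of them among the 9 lower genes and 7 among the 33 others. Those 4 were at −29 to −24 in *Gstm1*, −59 to −54 in *Nqo1* and −107 to −102 in *Gsta6*. In *Gsta1* they were at −176 to −171 on the other strand, so the count is not one of placed TATA boxes. The full oestrogen response element was in 0 of the 42 and in 8 of all promoters. These are matches of letters in a short window and say nothing of sites further away or of any factor.

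Outside tanycyte-like cells, few of the genes differed. Over the other 9 cell types 15 of 290 values were lower by over 1.5-fold (5.17%, beside 3.75% of the values of all genes) and 6 were higher (2.07%, beside 2.86%). Oligodendrocyte precursor-like cells had 0 of 31 genes past 1.5-fold in either direction, beside 2.77% of all genes lower and 1.99% higher. Endothelial cell-like cells had 1 of 35 lower and 0 higher, beside 3.77% and 3.7% of all genes, newly formed oligodendrocyte-like cells 1 of 26 lower and 0 higher, beside 4.06% and 2.57%, and mural cell-like cells 0 of 30 lower and 1 higher, beside 5.71% and 3%. These shares were at or near the background.

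**Figure D5:**
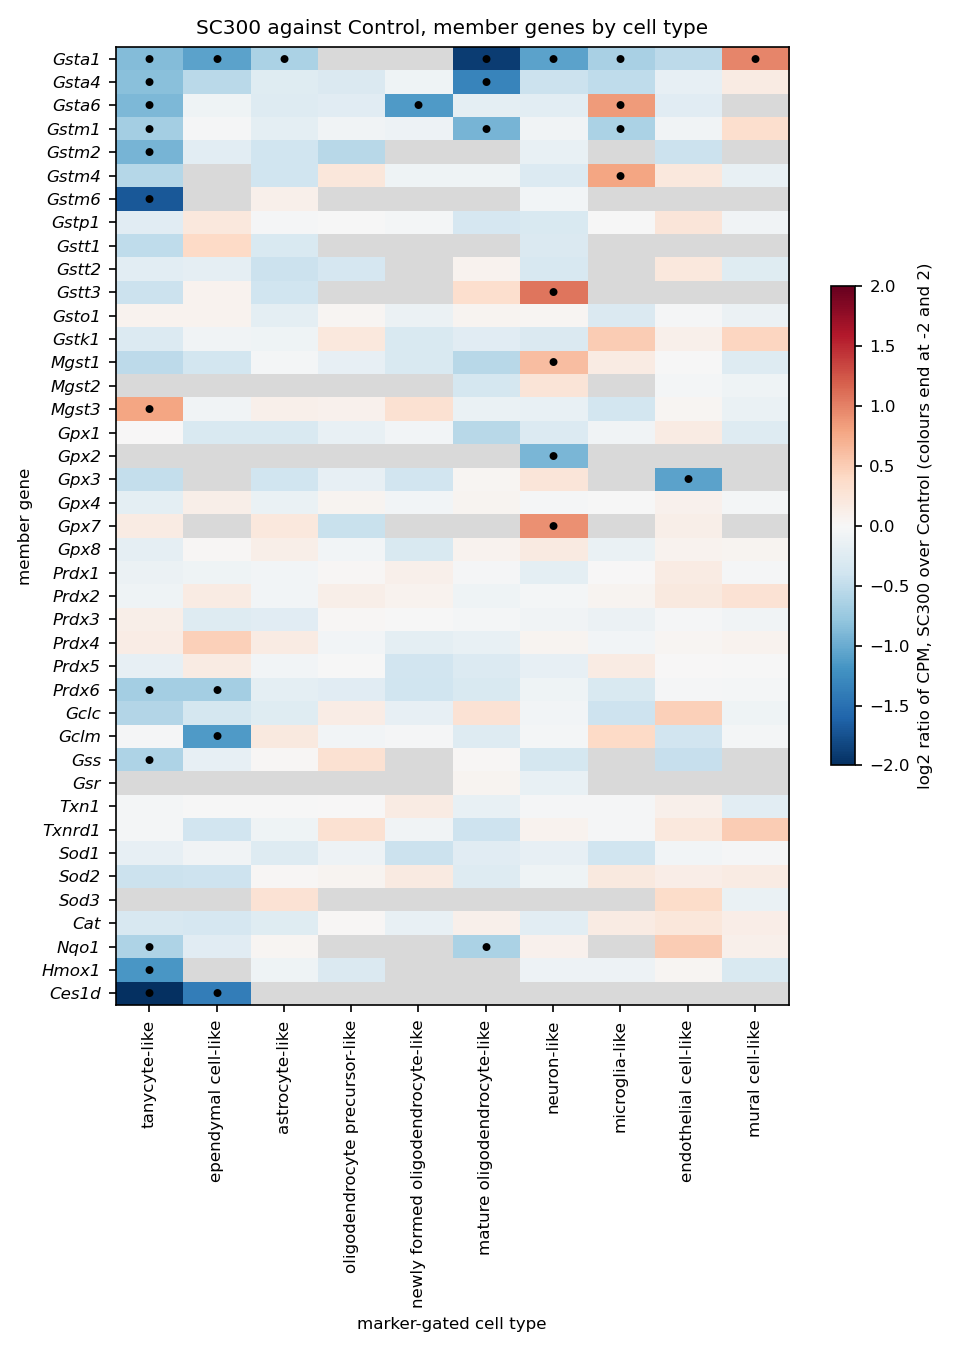
Log2 ratio of SC300 over Control for the 41 genes (rows) in 10 cell types (columns), with blue lower and red higher in SC300; dots mark values past 1.5-fold, and grey marks under 50 UMIs. The column of tanycyte-like cells holds 12 dots, ependymal cell-like cells 4 and oligodendrocyte precursor-like cells 0.

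Ependymal cell-like cells, 67 in Control and 51 in SC300, had 4 of 32 genes lower (12.5%) beside 5.88% of all genes, and 0 higher beside 2.95%. *Gsta1* had 635 and 189 UMIs (−1.07, −1.31 to −0.83), *Prdx6* 1327 and 518 (−0.68, −0.83 to −0.53), *Ces1d* 88 and 21 (−1.39, −2.15 to −0.69) and *Gclm* 77 and 22 (−1.13, −1.88 to −0.43). *Gstm1*, the most abundant of the genes there, had a log2 ratio of −0.02. Haemoglobin UMIs were at 4469 and 105 CPM in these cells, and median depth was 27655 and 16078 UMIs.

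Astrocyte-like cells, the largest class with 1173 and 1292 cells, had 1 of 37 genes lower, beside 2.02% of all genes, and 0 higher, beside 3.19%. That gene was *Gsta1*, with 3978 UMIs in Control and 2822 in SC300 (424 and 274 CPM, −0.63, −0.70 to −0.56). Over the alternatives its ratio ranged from −0.72 to −0.57, the latter just within 1.5-fold. The share of astrocyte-like cells with a *Gsta1* UMI was 74.3% (71.7 to 76.7) and 62.1% (59.4 to 64.7), and 46.8% and 31.9% once thinned to 2000 UMIs. In microglia-like cells the share was 4.63% and 3.61%. *Prdx6* (−0.20), *Gstm1* (−0.19) and *Mgst1* (294 CPM in SC300 against 302 in Control) were within 1.5-fold in astrocyte-like cells.

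Mature oligodendrocyte-like cells had 4 of 33 genes lower (12.1%), beside 3.53% of all genes, and 0 higher, beside 2.32%. All 4 were low there: *Gsta4* was at 44.7 CPM in Control and 17.8 CPM in SC300 (−1.33), *Gstm1* at 14.6 and 7.64 (−0.94), *Gsta1* at 12.0 and 3.21 (−1.90) and *Nqo1* at 5.25 and 3.40 (−0.63, −1.31 to 0.05). Free RNA puts transcripts of other cells into droplets, and the astrocyte gene *Agt* was at 147 and 80.3 CPM in the same cells. The part of free RNA was not tested. With called doublets left out, *Gstm1* was at −0.26 and *Gsta1* at −0.79 in these cells. The genes abundant in mature oligodendrocyte-like cells differed less, with *Gstp1* at −0.33, *Gstt3* at 0.33 and *Prdx1* at −0.03.

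Neuron-like cells had 2 of 39 genes lower and 3 higher, beside 3.45% and 2.78% of all genes, and all 5 were under 15 CPM. *Gsta1* had 168 and 81 UMIs (−1.07), *Gpx2* 60 and 32 (−0.92), *Mgst1* 61 and 95 (0.62), *Gpx7* 19 and 36 (0.91) and *Gstt3* 24 and 51 (1.07). A single cell held 62.7% of the *Gstt3* UMIs in SC300 and a single cell 62.5% of the *Gpx2* UMIs, and without the top cells *Gstt3* was at −0.07. *Gpx3*, the gene most typical of neuron-like cells, was at 0.24 there, and 87.5% and 86.4% of the cells held a UMI of it, against 2.90% and 2.61% of microglia-like cells.

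Microglia-like cells had 2 of 27 genes lower and 2 higher, beside 3.82% and 3.18% of all genes. *Gstm1* (106 and 70 UMIs, −0.63) and *Gsta1* (43 and 28, −0.65, −1.39 to 0.07) were lower, and *Gstm4* (27 and 48, 0.80) and *Gsta6* (21 and 39, 0.86) were higher, all at under 30 CPM. *Gpx1* and *Hmox1*, the genes most typical of these cells, were at −0.07 and −0.10. The share of microglia-like cells with an *Hmox1* UMI was 71.8% and 73.5%, against 2.41% and 4.74% of mature oligodendrocyte-like cells. In the remaining types, *Gpx3* in endothelial cell-like cells had 40 and 21 UMIs (−1.06), *Gsta6* in newly formed oligodendrocyte-like cells 42 and 23 (−1.14), and *Gsta1* in mural cell-like cells 17 and 47 (0.98, and 0.16 with cell types from clusters). The *Gpx3* value was 0.26 with called doublets left out.

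Summed over all kept cells, *Ces1d* was at 44.6 CPM in Control and 6.21 CPM in SC300 (−2.85), *Gsta1* at 225 and 116 CPM (−0.96), and *Gstm1* at 409 and 266 CPM (−0.62). Fewer tanycyte-like cells and less transcript per cell both enter these sums and cannot be told apart in them. The ratios within tanycyte-like cells are given above. Other cell types enter the sums too. In Control, tanycyte-like cells held 7066 *Gstm1* UMIs, ependymal cell-like cells 6067 and astrocyte-like cells 4932.

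Genes that supply glutathione were set beside these enzymes. This list and those that follow were also chosen with earlier results of these data known. Of 17 genes of glutathione supply and turnover, 12 had enough UMIs in tanycyte-like cells, and 4 were lower by over 1.5-fold and 0 higher, with a median of −0.42. Of all genes in these cells, 7.34% were lower and 5.51% higher, and the counts of this list and those that follow stand beside these shares. *Slc7a11*, the cystine carrier that limits glutathione synthesis, had 561 UMIs in Control and 73 in SC300 (185 and 28.9 CPM, −2.68, −3.05 to −2.33). Its partner chain *Slc3a2* was at −0.97, *Oplah*, which recycles 5-oxoproline, at −0.87, and *Ggt1*, which cleaves glutathione outside the cell, at −0.64 (−1.42 to 0.10). *Slc7a11* was also lower in astrocyte-like cells, at 340 and 195 CPM (−0.80, −0.88 to −0.72), and in ependymal cell-like cells, at 59.5 and 19.6 CPM (−1.60). It was low in mature oligodendrocyte-like cells (6.75 and 1.60 CPM, −2.07) and neuron-like cells (4.23 and 1.84 CPM, −1.20). The part of free RNA in these low values was not tested.

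Other detoxification enzymes were lower in tanycyte-like cells for 4 of 16 compared and higher for 1, with a median of −0.23. *Aldh1a1*, an aldehyde dehydrogenase that makes retinoic acid, had 590 and 70 UMIs (195 and 27.7 CPM, −2.81, −3.19 to −2.45). *Por*, the electron donor of cytochrome P450 enzymes, was at −1.05, *Cyp2d4* at −0.96 and *Aldh2*, the mitochondrial enzyme, at −0.61, while *Sult1a1*, a sulfotransferase, was at 0.79. *Aldh2* was at 1.71 in microglia-like cells, and *Cbr3*, a carbonyl reductase, was past 1.5-fold in 3 types, upward in astrocyte-like and neuron-like cells and downward in microglia-like cells.

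Among thioredoxin, glutaredoxin and methionine sulfoxide repair genes 1 of 13 was lower in tanycyte-like cells (*Txndc17*, −0.98) and 1 higher (*Txnip*, the thioredoxin-binding protein, 1.57), near the 7.34% and 5.51% of all genes, with a median of −0.09. Of 7 genes that supply NADPH, 1 was lower, *Tkt* of the pentose phosphate pathway (−0.62), and the median was 0.00. Of 6 NRF2 pathway regulators, 0 were past 1.5-fold in tanycyte-like cells, with *Nfe2l2*, which encodes NRF2, at −0.38 (−0.64 to −0.12) and *Keap1*, its inhibitor, at 0.08. Of 5 genes of haem breakdown and iron storage, 2 were lower, the ferritin heavy chain *Fth1* (10242 and 5868 CPM, −0.80) and *Hmox2* (−0.68), and the light chain *Ftl1* was at −0.13. *Maff*, a small MAF partner of NRF2, was higher in endothelial cell-like, microglia-like and mural cell-like cells, from 1.04 to 1.43.

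Haemoglobin transcripts, from red blood cells, differed between the libraries, and not in 1 direction. All 3 of the red blood cell genes compared in tanycyte-like cells were lower in SC300, with summed haemoglobin at 386 and 109 CPM, and so were all 5 in neuron-like cells and all 6 in mature oligodendrocyte-like cells, whereas all 6 were higher in mural cell-like cells (32798 and 64564 CPM). Their part in the differences above was not tested. In tanycyte-like cells, totals taken without haemoglobin, mitochondrial and ribosomal protein genes left 9 of 37 genes lower by over 1.5-fold and 1 higher. These shares were 24.3% and 2.7%, beside 6.25% and 6.52% of all genes.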

How the data were processed

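Single-cell RNA-seq (10x Genomics 3′ chemistry) was measured in 1 Control and 1 SC300 library. The authors aligned reads to an Ensembl rat transcriptome with Cell Ranger (3.0.1 in the submitters' processing notes) and deposited UMI counts per gene and barcode, without normalization. The genome build is not given in the sources used here. From 4488 Control and 4524 SC300 barcodes, a limit of 200 detected genes left 4296 and 4379, holding 51382276 and 56390355 UMIs. The study's methods name as many cells as barcodes were deposited, and its results name fewer cells than were kept here.

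No cell annotation was used. Each barcode was assigned by its marker scores (counts scaled to 10000, log-transformed, z-scored), with a minimum score of 0.5 and a margin of 0.25 to the next type. Ependymal and tanycyte scores were first pooled as 1 class, by the higher of the 2. Ependymal cell-like cells were then split off at an ependymal score of 4.5, and the others needed 2 tanycyte markers. These thresholds were set after seeing the data. 37 cells lay within 0.5 of the ependymal threshold, and 467 Control and 476 SC300 barcodes stayed unassigned. Scrublet called 70 and 73 doublets, which were kept.

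UMIs were summed per library and cell type. CPM have exact Poisson 95% intervals, shares of cells exact binomial (Clopper-Pearson) ones, and ratios exact conditional binomial ones. With 1 library per group no test was made, and genes with at least 50 UMIs over both libraries were compared against 1.5-fold. Genes were named where past 1.5-fold with an interval leaving out 0, where highest of their family in a cell type, or, for families, where at 100 CPM or more. Partner genes were named where past 1.5-fold in tanycyte-like cells or in at least 3 types. A result on 1 partner gene that the rule names is not reported here. *Gss* and other genes outside that rule were added after their values were seen. The members and lists were chosen with earlier results of these data known. Alternatives covered cell typing by clusters, mitochondrial and doublet filters, scaling, cell weighting, the UMI minimum and the fold. Those on *Frzb*, tanycyte markers, shared barcodes and thinning to 2000 UMIs were chosen after seeing the data. Python 3.11.15, NumPy 2.4.6, SciPy 1.17.1, pandas 2.3.3 and Scanpy 1.11.5 were used, and the ratio script was tested on simulated data.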

Additional observations from a re-analysis of the deposited data

Results flagged for a closer look

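*Gsta1* differed in direction between cell types. Its log2 ratio of SC300 over Control was −0.63 in astrocyte-like, −0.87 in tanycyte-like and −1.07 in ependymal cell-like cells. In neuron-like cells it was −1.07, at only 14.2 and 6.79 CPM, and ranged from −3.95 to −0.84 over the alternatives. In mature oligodendrocyte-like cells it was −1.90, at only 12.0 and 3.21 CPM, and ranged from −1.93 to −0.79. It was 0.98 in mural cell-like cells, where it rested on 17 and 47 UMIs. That value ranged from 0.16, with cell types from clusters, to 1.46 over the alternatives. *Gsta6* was at −0.90 in tanycyte-like and −1.14 in newly formed oligodendrocyte-like cells, but at 0.86 in microglia-like cells, on 21 and 39 UMIs. With 1 library per group, the difference between cell types was not tested.

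Barcodes under 200 detected genes, which no comparison used, held 388 UMIs of the 52 genes in Control (192 barcodes) and 316 in SC300 (145 barcodes).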

How the results depend on the processing

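In tanycyte-like cells 11 of 37 genes were lower and 1 higher. A 2-fold limit gave 3 and 0 of 37 (all genes 2.23% and 1.72%), cells with a *Frzb* UMI 5 and 0 of 33 (7.99% and 6.54%), and thinning to 2000 UMIs 7 and 0 of 24 (10.3% and 5.09%). In the other 9 types, 15 of 290 values were lower and 6 higher, against 24 and 10 of 318 with a minimum of 20 UMIs (6.41% and 5.28%), 9 and 1 of 245 with 100 UMIs (2.23% and 1.71%), 8 and 1 of 290 at 2-fold (0.823% and 0.684%), and 7 and 2 of 164 once thinned (4.36% and 3.25%), where the share lower was at that of all genes. For 30 single ratios, 279 of 333 alternative values stayed close, 45 moved and 9 changed sign. *Gpx3* in endothelial cell-like cells was at 0.26 without doublets, 0.26 with cells weighted alike and 0.91 thinned. *Gstt3* in neuron-like cells was at −0.095 with cells weighted alike and −0.074 without the top cells. Thinned values were −0.21 for *Mgst1*, −1.53 for *Gpx7* and 0.47 for *Gpx2* in neuron-like cells, and 0.33 for *Gstm1* in mature oligodendrocyte-like cells. Thinning leaves few UMIs of such low genes: a *Gpx2* UMI was left in 3 neuron-like cells of each library. The cause of these moves was not tested. Moves were not limited to low genes. In tanycyte-like cells *Gsta1* moved in 6 alternatives and ranged from −1.57 to −0.38. *Prdx6* moved in 5 (−0.90 to −0.36), *Gsta4* in 4 (−0.98 to −0.62) and *Nqo1* in 2 (−0.93 to −0.22). *Ces1d* moved in 3 and ranged from −2.92 to −2.09, and *Hmox1* moved in 0 (−1.37 to −1.03). These 6 ratios stayed below 0 throughout. No paired analysis was possible because each group was 1 library and no result came from a test. Depth limits the genes under 50 UMIs, and no library could be left out.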
